A study of Mus musculus with 9 samples.

Results

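The genes described here carry out antigen presentation by major histocompatibility complex (MHC) class I in mouse B cells. They are the 9 rows of the deposited expression table, out of 17596, whose symbols are *H2-K1*, *H2-D1*, *H2-T23*, *B2m*, *Tap1*, *Tap2*, *Tapbp*, *Erap1* and *Nlrc5*. The members are a list of names, drawn up with earlier results of these data known, and all 9 were found and passed the filter on low values, which left 10823 genes to test. RNA sequencing was done on primary B cells from the spleen of *Mb1*Cre mice, the control, and of *Mct1*f/f*Mb1*Cre mice, called *Mct1*-deficient here after their labels, on the C57BL/6J background and 6 to 8 weeks old. Both genotypes carry Cre recombinase, expressed from *Mb1* in cells of the B lineage, and in the second genotype both copies of *Mct1*, which encodes the monocarboxylate transporter MCT1, are flanked by the sites that Cre recombines. Cells were naive (day 0; 2 control and 2 *Mct1*-deficient libraries) or had been activated in culture for 3 days with LPS at 10 μg/ml and IL-4 at 50 ng/ml (day 3; 2 control and 3 *Mct1*-deficient libraries). The labels name no mouse, litter or culture, so the p-values measure only the spread between these libraries, which may be technical. The study asked how MCT1 and pyruvate metabolism bear on antibody class switching, and the genotypes on day 3 are its main comparison.

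MHC class I molecules show peptides from inside the cell to CD8+ T cells. The proteasome cuts cytosolic proteins into peptides, the TAP transporter carries these into the endoplasmic reticulum, the aminopeptidase ERAP1 trims them, and tapasin holds the empty heavy chain beside TAP until a peptide is bound. The heavy chain reaches the cell surface together with β2-microglobulin, and NLRC5 is the transactivator that drives transcription of this gene set through the conserved boxes of its promoters. B cells also present peptides on MHC class II, a separate route that serves CD4+ T cells and is driven by CIITA.

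Of the 9 genes, 6 lie on chromosome 17 in GRCm38.p6. *Tapbp* (gene 21356, tapasin) spans chr17:33919478-33929290 and *H2-K1* (gene 14972) spans chr17:33996012-34000619 on the minus strand. *Tap1* (gene 21354) at chr17:34187556-34197225 and *Tap2* (gene 21355) at chr17:34204479-34216321 encode the 2 chains of the transporter and are 7254 bases apart, with *Psmb8*, a subunit of the immunoproteasome, between them. *H2-D1* (gene 14964) at chr17:35263094-35267497 lies on the plus strand, and *H2-T23* (gene 15040) follows at chr17:36029977-36032701. *B2m* (gene 12010) lies at chr2:122147687-122153082, *Erap1* (gene 80898) at chr13:74639573-74693205 and *Nlrc5* (gene 434341) at chr8:94434335-94527272.

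The promoters of *H2-K1*, *H2-D1* and *B2m* are shown because the chains of the classical class I molecule are the genes that differed most between the genotypes on day 3, in the same direction, and because each of their promoters holds an X2 box followed by a Y box at the same spacing. Each is the 250 bases before an annotated transcript start, 5′ to 3′ on the strand of the gene, from RefSeq (GRCm38.p6). The windows are chr17:34000348-34000597 on the minus strand for *H2-K1*, which has a second annotated start, chr17:35262844-35263093 on the plus strand for *H2-D1* and chr2:122147437-122147686 on the plus strand for *B2m*. The *H2-K1* window lies inside the span of the gene, which reaches base 34000619. Capitals mark, on either strand, the kappa B core (GGGNNTTCC), the interferon-stimulated response element core (GAAANNGAA, or a second form, GAANNGAAA, added after the promoters were read), the X2 box (TGACG) and the Y box (CCAAT).
H2-K1: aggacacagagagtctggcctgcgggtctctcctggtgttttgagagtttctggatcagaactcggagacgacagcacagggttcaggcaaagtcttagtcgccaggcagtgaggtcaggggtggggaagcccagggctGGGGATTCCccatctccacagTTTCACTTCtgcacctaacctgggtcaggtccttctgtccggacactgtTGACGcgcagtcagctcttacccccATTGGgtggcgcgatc
H2-D1: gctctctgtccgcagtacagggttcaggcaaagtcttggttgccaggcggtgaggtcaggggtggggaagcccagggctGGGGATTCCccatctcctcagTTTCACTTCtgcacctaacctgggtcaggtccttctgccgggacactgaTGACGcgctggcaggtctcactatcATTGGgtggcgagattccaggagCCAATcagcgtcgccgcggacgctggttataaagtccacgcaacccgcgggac
B2m: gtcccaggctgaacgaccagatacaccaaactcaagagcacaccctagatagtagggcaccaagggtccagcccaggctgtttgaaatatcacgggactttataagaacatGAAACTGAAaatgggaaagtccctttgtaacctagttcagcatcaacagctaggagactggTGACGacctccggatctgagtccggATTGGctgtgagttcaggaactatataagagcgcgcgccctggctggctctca
In all 3 promoters the first letter of an X2 box stood 25 bases before that of a Y box read on the opposite strand (ATTGG). This arrangement, TGACG followed after 20 bases by ATTGG, occurred in 30 of 32851 mouse promoter windows (0.0913%), which belong to 26 gene symbols, among them *H2-M3*. *H2-K1* and *H2-D1* also shared the kappa B core, with its first letter 70 bases before that of the X2 box, and were the same at 89 of 100 bases from the kappa B core through the Y box. The promoter table held 7 of the 9 members, leaving out *Tap2* and *Nlrc5*. Of these 7 promoters, 4 held TGACG, 6 held CCAAT, 2 held GGGNNTTCC, 3 held GAAANNGAA (*B2m*, *Erap1*, *H2-T23*), 2 held GAANNGAAA (*H2-K1*, *H2-D1*) and 0 held the gamma-activated site core (TTCNNNGAA). The shares among all windows were 17.8%, 33.8%, 4.98%, 7.13%, 6.31% and 7.02%, respectively. A match of letters describes these windows and shows no binding.

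Levels are given in fragments per kilobase of transcript and per unit of mapped fragments (FPKM), which are corrected for gene length, so that genes can be ranked within a library. The deposited values hold no read counts, and the depth of each library is unknown. The FPKM of all genes summed to between 477079 and 491459 in the 4 day 0 libraries and to between 547355 and 563586 in the 5 day 3 libraries. *Slc16a1*, the gene symbol of *Mct1*, was the check of the labels. It had 4.33 and 3.80 FPKM in control and 3.71 and 4.06 FPKM in *Mct1*-deficient libraries on day 0, against 22.58 and 22.95 FPKM in control and 10.8, 9.81 and 9.50 FPKM in *Mct1*-deficient libraries on day 3. The genotypes stood apart on day 3. They overlapped on day 0, when the deficient libraries had 95.6% of the control mean, so this gene did not check the labels of the day 0 libraries, whose genotype rests on the labels alone.

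The 9 genes covered more than 2 orders of magnitude. In naive control cells *B2m* had the highest level, 2708 ± 186 FPKM (SD, n = 2), and was the 8th most abundant of the 17596 genes. The classical heavy chains followed at 1108 ± 51.1 FPKM for *H2-K1* and 1021 ± 40.8 FPKM for *H2-D1*, which did not overlap over the 2 libraries. The non-classical heavy chain *H2-T23*, known as Qa-1, a ligand of the NK cell receptor NKG2A, had 229 ± 11.7 FPKM. *Tapbp* with 146 ± 5.54 FPKM, *Tap1* with 120 ± 1.47 FPKM and *Tap2* with 69.7 ± 0.304 FPKM came next without overlap between neighbours. *Erap1* with 26.1 ± 0.396 FPKM and *Nlrc5* with 18.5 ± 0.877 FPKM were the lowest, and *Nlrc5* ranked 4402nd. On day 3 the order in control cells was the same but for *Tap1*, which passed *Tapbp*.

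**Figure D1:**
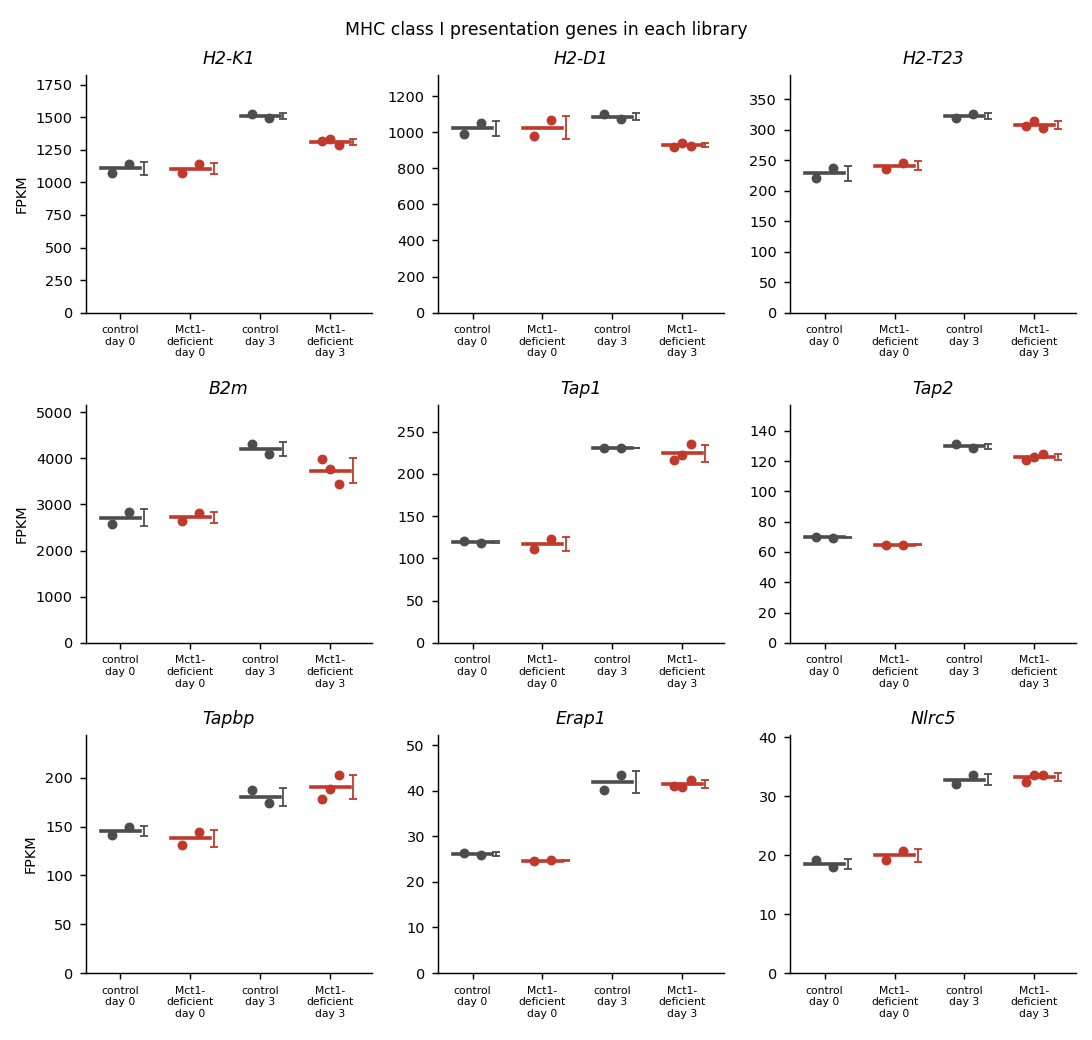
FPKM of the 9 genes in each of the 9 libraries (points; dark, control; red, *Mct1*-deficient), with the group mean (line) and SD (bar) and the vertical axis from 0. All of the genes but *H2-D1* were higher in every day 3 than in every day 0 library. *H2-K1*, *H2-D1*, *B2m*, *H2-T23* and *Tap2* were lower in each of the 3 *Mct1*-deficient than in each of the 2 control libraries on day 3.

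The comparison of the genotypes on day 3 found 2 of the 9 genes lower in *Mct1*-deficient cells, both classical heavy chains. *H2-K1* had 1524 and 1493 FPKM in the control libraries and 1317, 1330 and 1286 FPKM in the *Mct1*-deficient libraries. All 3 of the latter lay below both controls, and their mean was 86.9% of the control mean. The log2 fold change was -0.20 (SE 0.0477, limma, Benjamini-Hochberg adjusted p = 0.0170). *H2-D1* had 1100 and 1074 FPKM in control against 920, 941 and 921 FPKM in *Mct1*-deficient libraries, again without overlap and at 85.3% of the control mean. Its log2 fold change was -0.23 (SE 0.0492, limma adjusted p = 0.0109). These differences rest on few libraries. Without the first or the second control library of day 3, which leaves 1 that is assumed to vary like the other groups, the adjusted p was 0.122 and 0.0704 for *H2-K1* and 0.0933 and 0.0520 for *H2-D1*, and without the third *Mct1*-deficient library it was 0.0666 for *H2-K1* (limma). The adjusted p of *H2-K1* also missed 0.05 with the replicate number as a block (limma adjusted p = 0.0852), median-of-ratios scaling (0.0633) and no filter on low values (0.0610). *B2m*, the partner chain of both, had 4301 and 4092 FPKM in control and 3978, 3764 and 3439 FPKM in *Mct1*-deficient libraries. The 3 values lay below both controls at 88.8% of the control mean, with a wider spread among themselves, and the change of -0.17 (95% interval -0.33 to -0.015) did not pass the adjustment (limma adjusted p = 0.137).

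None of the 9 genes met both call limits, adjusted p below 0.05 and a change beyond 0.5 log2 units either way, by which 0.887% of the tested genes were higher and 1.53% lower. With the adjusted p alone, 2 of 9 were lower and 0 higher, against a background of 9.21% of tested genes lower and 6.03% higher. Of the 9 genes, 5 were lower in *Mct1*-deficient cells on day 3 without overlap between the libraries and 0 higher, against 26.1% and 21.0% of all tested genes. The median of the members was -0.065 on the log2 scale and that of all tested genes -0.01.

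The remaining heavy chain and the transporter moved less. *H2-T23* had 319 and 326 FPKM in control and 307, 315 and 303 FPKM in *Mct1*-deficient libraries on day 3, lower without overlap, with a log2 fold change of -0.07 (limma adjusted p = 0.366). For *Tap2* the values were 131 and 129 FPKM in control against 121, 123 and 124 FPKM, a log2 fold change of -0.08 (limma adjusted p = 0.146). *Tap2* was lower without overlap on day 0 as well, with 69.9 and 69.5 FPKM in control and 64.4 and 64.9 FPKM in *Mct1*-deficient libraries. Its partner *Tap1* overlapped on both days, with 230 and 231 FPKM against 216, 222 and 235 FPKM on day 3, and its change of -0.04 had a 95% interval of -0.15 to 0.07. *Tapbp* (187 and 174 against 179, 189 and 203 FPKM), *Erap1* (40.2 and 43.6 against 41.2, 40.7 and 42.4 FPKM) and *Nlrc5* (32.1 and 33.5 against 32.4, 33.5 and 33.6 FPKM) also overlapped. The 95% interval for *Nlrc5*, the transactivator, ran from -0.10 to 0.13.

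In naive cells no member passed the adjusted p. *H2-K1* had 1072 and 1145 FPKM in control and 1075 and 1138 FPKM in *Mct1*-deficient libraries, and *H2-D1* had 993 and 1050 against 981 and 1069 FPKM. The genotype changes on day 0 were -0.00 and 0.00 on the log2 scale, with 95% intervals of -0.12 to 0.11 and -0.12 to 0.12. The largest change was that of *Tap2*, -0.11 (limma adjusted p = 0.335). Among all tested genes, 0.351% were higher and 0.0647% lower on day 0 by the adjusted p, and 0.24% and 0.037% by both limits. The latter are 30 genes, a number that went to 101 without the second control library, to 67 without the second *Mct1*-deficient library and to 2 with only the groups compared in the fit.

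Whether the genotype effect differed between the days was tested by the interaction, which no member passed. It was -0.23 for *H2-D1* (95% interval -0.39 to -0.071, limma adjusted p = 0.0743), -0.20 for *H2-K1* (limma adjusted p = 0.106) and -0.14 for *H2-T23* (limma adjusted p = 0.197). Of all tested genes, 3.82% were higher and 5.61% lower in the interaction by the adjusted p, and 1.02% and 2.22% by both limits. The interaction passed for *H2-D1* and *H2-K1* under quantile normalization (limma adjusted p = 0.0246 and 0.0415), and for *H2-D1* without the first *Mct1*-deficient day 0 library (-0.30, limma adjusted p = 0.0421), a fit in which that group is 1 library assumed to vary like the other groups.

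**Figure D2:**
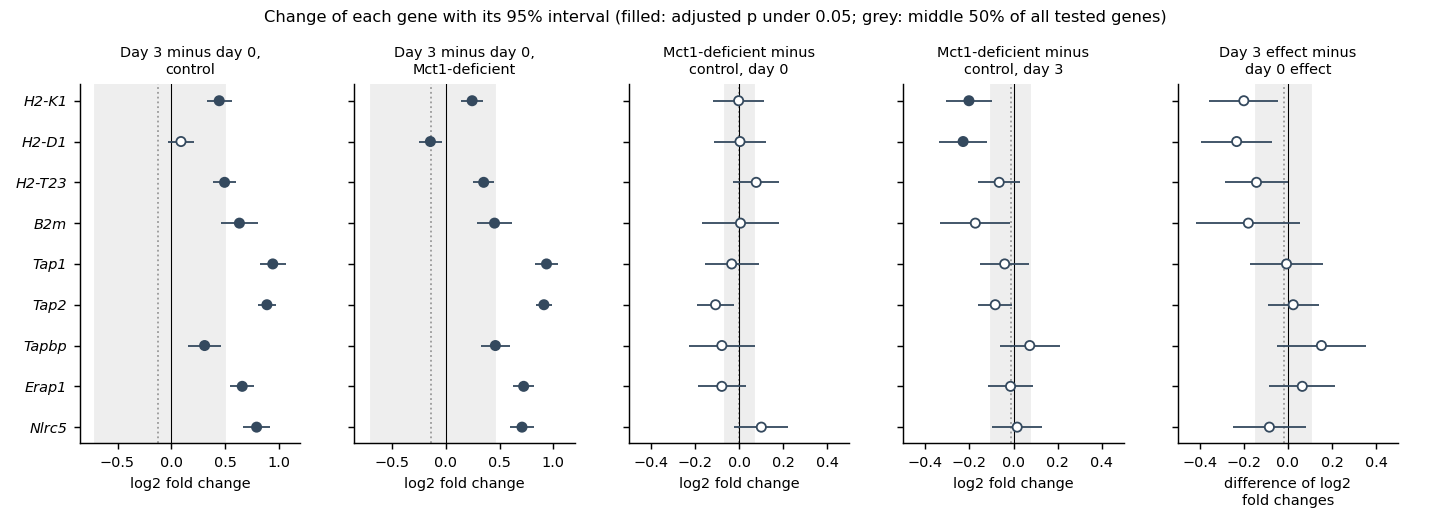
Log2 fold change of each gene (points, with 95% intervals) in the 5 comparisons, on the log2(FPKM + 1) scale, with different horizontal ranges for the activation and genotype panels. The grey band is the middle 50% of all tested genes and the dotted line their median; *H2-K1* and *H2-D1* are the only filled points, those with an adjusted p under 0.05, in the genotype panels.

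Activation was the larger contrast. In control cells 8 of the 9 genes were higher on day 3 by the adjusted p (37% of all tested genes were higher and 47.5% lower by this rule), and 5 also passed the fold limit (24.8% higher and 33% lower among all). By both limits 3 were higher with equal FPKM totals and 8 with median-of-ratios scaling. Among all tested genes 2687 were higher by both limits as deposited, 2074 with equal FPKM totals and 3433 with median-of-ratios scaling. The median of the 9 genes was 0.63 on the log2 scale and that of all tested genes -0.12. The transporter rose most. *Tap1* went from 121 and 118 FPKM to 230 and 231 FPKM, a fold of 1.93 and a log2 fold change of 0.94 (SE 0.0552, limma adjusted p = 2.4e-08), and *Tap2* from 69.9 and 69.5 FPKM to 131 and 129 FPKM, a fold of 1.86. *Nlrc5* rose from 19.1 and 17.9 FPKM to 32.1 and 33.5 FPKM, 1.77-fold, and *Erap1* from 26.4 and 25.9 FPKM to 40.2 and 43.6 FPKM, 1.60-fold. No day 0 library of these 4 genes reached the level of any day 3 library. The same held for *H2-K1*, *H2-T23*, *B2m* and *Tapbp*, but not for *H2-D1*. How many of all tested genes were apart in this way was not counted.

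The chains of the class I molecule rose by different amounts. *B2m* went from 2577 and 2840 FPKM to 4301 and 4092 FPKM, 1.55-fold, which made it the 4th most abundant gene. *H2-T23* rose 1.41-fold and *H2-K1* 1.36-fold, from 1072 and 1145 FPKM to 1524 and 1493 FPKM. *Tapbp* rose 1.24-fold, from 142 and 149 FPKM to 187 and 174 FPKM. *H2-D1* had a fold of 1.06, from 993 and 1050 FPKM in naive to 1100 and 1074 FPKM in activated cells, and its change of 0.09 did not pass (95% interval -0.03 to 0.21, limma adjusted p = 0.141).

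In *Mct1*-deficient cells 8 genes were higher and 1 was lower on day 3 by the adjusted p, against 36.4% and 49.1% of all tested genes, and 4 were higher by both limits, against 23.4% and 33.2% lower. With median-of-ratios scaling 7 were higher by both limits, and the number over all tested genes went from 2532 to 3341. *Tap1* rose 1.92-fold, *Tap2* 1.90-fold, *Erap1* 1.68-fold, *Nlrc5* 1.66-fold, *Tapbp* 1.38-fold, *B2m* 1.37-fold, *H2-T23* 1.28-fold and *H2-K1* 1.18-fold. The rise of *H2-K1* did not pass with equal FPKM totals (0.07, limma adjusted p = 0.122). *H2-D1* was the gene that fell, from 981 and 1069 FPKM to 920, 941 and 921 FPKM, with a log2 fold change of -0.14 (SE 0.0492, limma adjusted p = 0.0181). Its 3 day 3 libraries lay below both day 0 libraries, while in control cells both day 3 libraries lay above both day 0 libraries. This did not pass without the second *Mct1*-deficient day 0 library, the one of its group with low Y-linked transcripts (-0.08, limma adjusted p = 0.196), or with the replicate number as a block (limma adjusted p = 0.0511).

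The direction of the *H2-D1* change on activation depended on how the libraries were scaled. With every library set to the same FPKM total it was -0.11 in control cells and -0.32 in *Mct1*-deficient cells, and with median-of-ratios scaling it was 0.30 and 0.08. The median of all tested genes moved from -0.12 to -0.31 and 0.07 in control cells under these scalings and to 0.016 under quantile normalization, so that *H2-D1* lay above it in control cells except under quantile normalization, where it was -0.21. *H2-K1* was 0.01 in control and -0.15 in *Mct1*-deficient cells under quantile normalization. *Tap1*, *Tap2*, *Erap1*, *Nlrc5*, *B2m*, *H2-T23* and *Tapbp* kept a positive change under all 4 scalings in both genotypes. The rise of *Tapbp* in control cells was smaller and did not pass under equal totals (0.11, limma adjusted p = 0.117) or quantile normalization (0.05, limma adjusted p = 0.512).

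**Figure D3:**
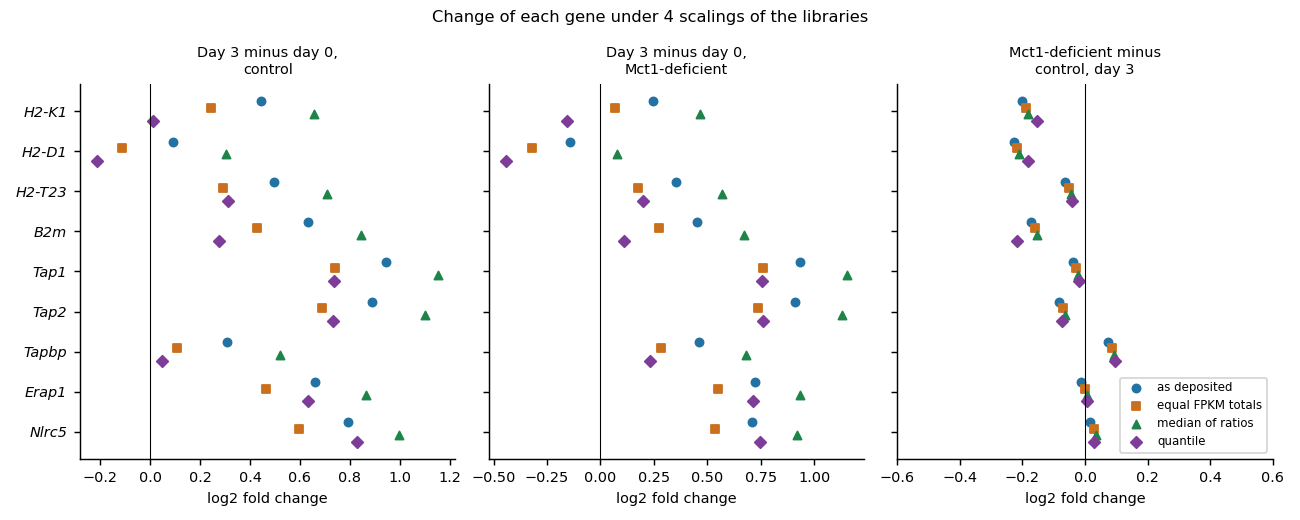
Log2 fold change of the 9 genes on activation in each genotype and between the genotypes on day 3, with the values as deposited and under 3 other scalings (marker shapes). Equal totals and median-of-ratios scaling moved the 9 genes together on activation, quantile normalization moved them by unequal amounts (in control cells *H2-K1* from 0.45 to 0.01 and *Nlrc5* from 0.79 to 0.83), and all 3 moved *H2-K1* and *H2-D1* between the genotypes only within -0.23 to -0.15.

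Ratios within a library do not depend on a scaling factor of that library. The ratio of *H2-K1* to *H2-D1* was 1.08 and 1.09 in control and 1.10 and 1.06 in *Mct1*-deficient cells on day 0, and 1.39 and 1.39 against 1.43, 1.41 and 1.40 on day 3. All day 3 libraries thus lay above all day 0 libraries, showing an unequal change of the 2 heavy chains. *B2m* relative to the sum of *H2-K1*, *H2-D1* and *H2-T23* went from 1.15 ± 0.0284 to 1.44 ± 0.0334 in control cells (SD, n = 2) and from 1.15 ± 0.00297 (n = 2) to 1.46 ± 0.0968 (n = 3) in *Mct1*-deficient cells, with overlap between the genotypes on each day. *Tapbp* relative to *Tap1* fell from 1.22 to 0.783 in control and from 1.18 to 0.848 in *Mct1*-deficient cells, without overlap between the days. The ratio of *Tap1* to *Tap2* stayed between 1.71 and 1.89 in all 9 libraries. Together the 9 genes took 1.13% of all FPKM in naive control cells and 1.39% ± 0.00628 on day 3 (SD, n = 2), against 1.12% and 1.25% ± 0.0482 (n = 3) in *Mct1*-deficient cells.

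Part of each heavy chain transcript is shared with related genes. Of all stretches of 50 bases in the annotated transcript, 8.79% in *H2-K1*, 14.3% in *H2-D1* and 28.8% in *H2-T23* also occur in transcripts of other genes, so fragments from these stretches could have been assigned to a relative, and the 3 levels are uncertain to that extent. The share was 0% for *B2m*, *Erap1* and *Nlrc5*, 0.737% for *Tap2*, 0.861% for *Tap1* and 2.0% for *Tapbp*.

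The other genes of the route were taken from lists written by hand. Proteasome genes rose with activation. Of the 5 immunoproteasome genes, 4 were called higher in both genotypes, beside 24.8% and 23.4% of all tested genes. *Psmb9* rose from 105 to 321 FPKM in control cells (log2 fold change 1.61), *Psme2*, of the PA28 activator, from 114 to 294 FPKM (1.35), *Psmb8* from 166 to 329 FPKM (0.98) and *Psme1* from 233 to 375 FPKM (0.69), while *Psmb10* had 69.8 and 74.1 FPKM (0.08, limma adjusted p = 0.264). The constitutive catalytic subunits were all called higher, *Psmb7* by 1.59, *Psmb5* by 1.06 and *Psmb6* by 0.93 on the log2 scale. The ratio of the 3 immunoproteasome to the 3 constitutive catalytic subunits fell from 1.90 ± 0.0530 to 1.74 ± 0.0653 in control cells (SD, n = 2). Between the genotypes on day 3, 0 of these 8 genes passed the adjusted p.

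Among 8 genes of peptide loading and glycoprotein folding, 6 were called higher on activation in control and 5 in *Mct1*-deficient cells, with a median of 1.11 and 1.02, beside the same shares of all tested genes. The chaperone *Hspa5* (BiP) rose from 189 to 512 FPKM, *Pdia3* (ERp57, part of the loading complex) from 137 to 321 FPKM, *Calr* (calreticulin) from 373 to 836 FPKM and *Sec61a1*, of the protein channel of the endoplasmic reticulum, from 47.7 to 108 FPKM. *Hspa5* was the member of this list that differed between the genotypes on day 3 by the adjusted p, with 519 and 505 FPKM in control and 455, 440 and 441 FPKM in *Mct1*-deficient libraries (log2 fold change -0.20, limma adjusted p = 0.00787). Of 6 tested cytosolic or other peptidases, 3 were called higher on activation in control cells, *Lap3* by 1.57, *Thop1* by 1.45 and *Blmh* by 0.87.

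The other class I and class I-like heavy chains went both ways. Of 20 listed, 18 were in the table and 16 were tested, and on activation in control cells 3 were called higher and 7 lower, beside 24.8% and 33% of all tested genes. *H2-M5* rose from 0.265 to 12.7 FPKM, *H2-T22* from 92.2 to 196 FPKM and *H2-Q7* from 98.9 to 205 FPKM. The genes that fell most were *Fcgrt*, the neonatal Fc receptor, from 29.7 to 0.820 FPKM, *Cd1d1*, which presents lipids to NKT cells, from 28.6 to 3.31 FPKM, and *H2-M2* from 4.17 to 0.08 FPKM. On the log2(FPKM + 1) scale, which understates the change of low genes, these falls were -4.08, -2.78 and -2.26. Between the genotypes on day 3, *Fcgrt* was higher in *Mct1*-deficient cells, with 0.92 and 0.72 against 1.33, 1.45 and 1.45 FPKM (log2 fold change 0.41, limma adjusted p = 0.00563), and the median of the 16 genes was 0.015.

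Of 15 transcription factors that act on class I promoters, 2 were called higher on activation in control cells and 6 lower, beside the same 24.8% and 33%. *Nfkb1* rose from 94.0 to 230 FPKM and *Stat2* from 34.3 to 60.1 FPKM, while *Irf2* fell from 110 to 61.1 FPKM and *Rfx5*, a subunit of the complex on the X box, from 36.7 to 22.5 FPKM. On day 3 *Nfkb1*, which encodes the p50 subunit of NF-κB and its precursor p105, was lower in *Mct1*-deficient cells, with 224 and 236 FPKM in control against 192, 200 and 196 FPKM (log2 fold change -0.23, limma adjusted p = 0.00277). *Nfya* was higher by 0.18 on the log2 scale (limma adjusted p = 0.0285), and the other 13 did not pass.

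Of 9 tested interferon signalling genes, 5 were called lower and 2 higher on activation in control cells, beside 33% and 24.8% of all tested genes. *Ifngr1*, a chain of the interferon γ receptor, fell from 78.7 to 14.1 FPKM and the kinase *Jak2* from 40.6 to 19.0 FPKM, while the feedback inhibitors *Socs1* and *Socs3* rose from 9.80 to 107 FPKM and from 6.56 to 32.2 FPKM. On day 3 *Socs3* had 33.5 and 30.9 FPKM in control and 17.4, 18.4 and 19.4 FPKM in *Mct1*-deficient libraries, a log2 fold change of -0.78 (limma adjusted p = 3.5e-04). By the adjusted p alone *Ifnar2* (-0.25), *Ifngr2* (-0.20) and *Ifnar1* (-0.15) were also lower and *Socs1* (0.45) was higher. The ligand genes were near 0, with group means of *Ifng* between 0.71 and 1.31 FPKM and *Ifnb1* at or below 0.21 FPKM in each library.

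The MHC class II genes had medians of the opposite sign in both contrasts. Of 11 genes, 9 were called lower and 0 higher on activation in control cells, and 6 lower and 0 higher in *Mct1*-deficient cells, with medians of -0.70 and -0.54, beside 33% and 33.2% of all tested genes called lower. *H2-Ob* and *H2-Oa*, which form the DO regulator of peptide loading, fell by 1.96 and by 1.68 on the log2 scale, the protease *Ctss* fell by 1.09, and the class II chain *H2-Aa* fell by 0.81, from 3074 to 1758 FPKM. On day 3, 5 of the 11 were higher and 0 lower in *Mct1*-deficient cells by the adjusted p alone, beside 6.03% and 9.21% of all tested genes, and the median was 0.15. *Ciita* had 49.9 and 51.9 FPKM in control and 69.4, 70.5 and 76.2 FPKM in *Mct1*-deficient libraries (log2 fold change 0.49, limma adjusted p = 7.8e-04), *H2-Aa* had 1763 and 1753 against 1983, 2064 and 2007 FPKM, and *H2-Oa*, *H2-Eb1* and *H2-Ob* were higher by 0.29, 0.17 and 0.15. The difference between the class I and class II genes was not tested.

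**Figure D4:**
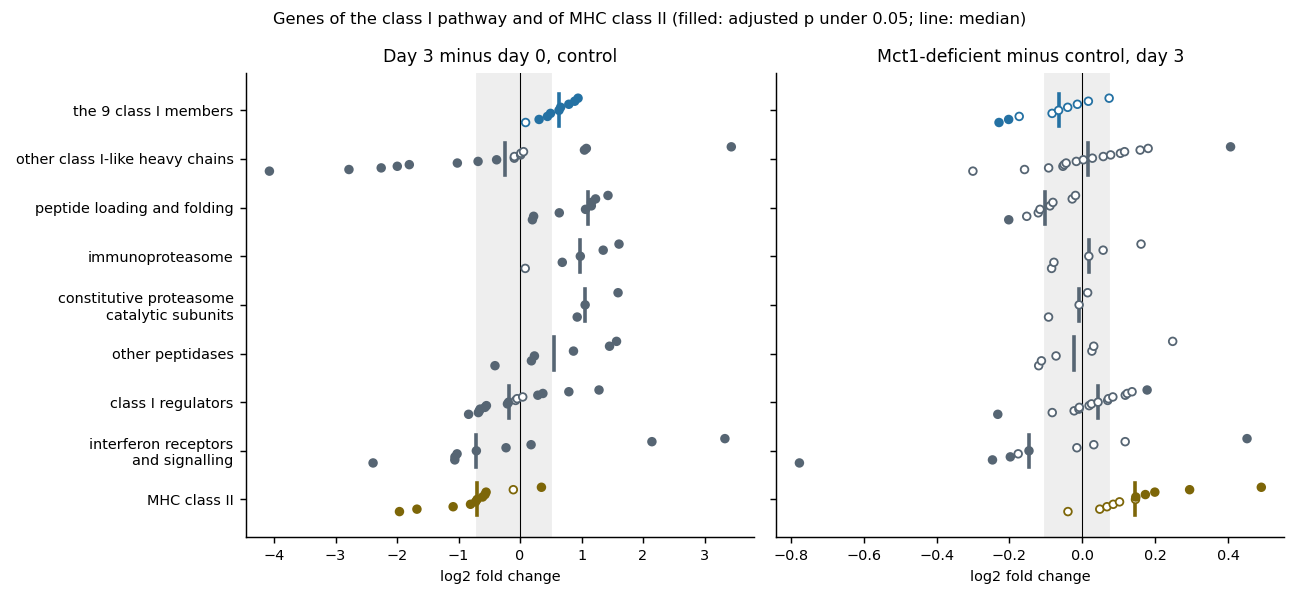
Log2 fold change of the 9 genes (blue), of 7 lists of the class I route (grey) and of MHC class II (gold), on activation in control cells (left) and between the genotypes on day 3 (right), 1 point per tested gene, filled where the adjusted p was under 0.05, with the list median as a line and the middle 50% of all tested genes as a band. On activation the medians of the 9 genes, loading and both proteasome lists lie above 0.6, while those of the other heavy chains (-0.24), class I regulators (-0.19), interferon signalling (-0.71) and class II (-0.70) lie below 0, and on day 3 the median of the 9 genes is -0.065 and that of class II 0.15.

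The libraries also differed in markers of other cells. The 6 B cell markers summed to 4515 FPKM in control and 4349 FPKM in *Mct1*-deficient cells on day 0 and to 2245 and 2223 FPKM on day 3, and all 6 were above 1 FPKM in each group. In bulk RNA, fewer cells of a type cannot be told apart from less RNA per cell. Of the myeloid list of 8 genes, all 8 were called lower on activation in both genotypes, beside 33% and 33.2% of all tested genes. Their sum was 1081 and 1269 FPKM in control and 1855 and 1157 FPKM in *Mct1*-deficient libraries on day 0, led by *Lyz2*, against 25.6 and 23.1 FPKM and 33.4, 31.6 and 36.2 FPKM on day 3, when 4 of the 8 were under 1 FPKM. Erythroid markers summed to 101 and 147 FPKM on day 0 and to 7.32 and 5.48 FPKM on day 3, with *Hbb-bs* at 0 on day 3. *Hba-a1* was called higher in *Mct1*-deficient cells on day 0, with 49.5 and 44.8 FPKM in control and 82.2 and 66.4 FPKM in *Mct1*-deficient libraries (log2 fold change 0.64, limma adjusted p = 0.0293). T cell markers summed to 52.3 and 47.7 FPKM and then to 11.7 and 13.3 FPKM, of which *Lck* held 10.4 and 12.4 FPKM. The NK cell list had 82.7 and 84.3 FPKM and then 97.3 and 89.4 FPKM. *Gzma* held 38.9 and 37.5 FPKM of these sums on day 0 and 90.9 and 82.5 FPKM on day 3. Of the 5 NK cell genes, 1 (*Gzma*) was called higher and 4 lower on activation in both genotypes. Among all tested genes 24.8% were higher and 33% lower in control cells, and 23.4% and 33.2% in *Mct1*-deficient cells. The 3 platelet markers never summed above 10.3 FPKM in a library. The part of these cells in the activation changes of the class I genes was not tested.

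On day 3, where the heavy chains differed, *Lyz2* (log2 fold change 0.71) and *Adgre1* (0.68) of the myeloid list were called higher in *Mct1*-deficient cells. Of the 5 dendritic cell markers *Flt3* (-1.21) and *Zbtb46* (-0.60) were called lower, with *Flt3* at 17.6 and 17.4 against 6.67, 6.96 and 7.41 FPKM, while *Siglech*, *Xcr1* and *Clec9a*, at or below 0.26 FPKM in each day 3 library, did not pass, and the list, mostly *Flt3* and *Zbtb46*, summed to 22.7 and 22.7 FPKM in control against 9.61, 10.1 and 10.9 FPKM. Of the B cell markers *Cd22* was higher (0.35) by the adjusted p. Their part in the heavy chain difference was not tested.

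Y-linked transcripts split the libraries in a way that crosses the days. The 4 Y-linked genes summed to 3.29 and 2.23 FPKM in the control and to 112 and 3.55 FPKM in the *Mct1*-deficient libraries on day 0, and to between 73.98 and 95.04 FPKM in all 5 day 3 libraries. In control cells the day and the sex of the mice therefore cannot be told apart. In *Mct1*-deficient cells the Y-low day 0 library was left out, so that day 0 is 1 library assumed to vary like the other groups. *Tap1* then rose by 1.01, *Tap2* by 0.92, *Nlrc5* by 0.76 and *Erap1* by 0.73 on the log2 scale. *Tapbp* rose by 0.53, *B2m* by 0.50, *H2-T23* by 0.38 and *H2-K1* by 0.29, and *H2-D1* had -0.08 in the same fit. The day 0 library kept had the highest summed myeloid (1855 FPKM) and erythroid (173 FPKM) markers of all day 0 libraries. All 5 libraries of the day 3 genotype comparison held Y-linked transcripts, with 89.3 and 95.04 FPKM in control and 77.97, 80.55 and 73.98 FPKM in *Mct1*-deficient libraries, lower without overlap.

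The genes whose pattern over the 9 libraries was most like each member were taken from all tested genes by Pearson's r of log2(FPKM + 1). The libraries form 4 points of day 0 and 5 of day 3, so r mostly follows the change between the days and is a description. The closest were *Josd1* for *Tap1* (r = 0.999), *Mef2b*, a transcription factor of germinal centre B cells, for *Tap2* (1.00), *Pinx1* for *Nlrc5* (0.998), *Cad*, an enzyme of pyrimidine synthesis, for *Erap1* (0.997) and *Atp5d* for *Tapbp* (0.990). For the chains of the molecule they were *Gm45935* for *H2-K1* (0.996), *Ifit1*, an interferon-induced gene, for *H2-T23* (0.996) and *Fkbp2* for *B2m* (0.990). *H2-D1*, which changed least between the days, had the lowest value, 0.957 with *Crtc2*, followed by *Slc66a2* (0.944) and *Neil1* (0.935).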

How the data were processed

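RNA sequencing values of 9 libraries of splenic B cells were used. The authors deposited FPKM, rounded to 2 decimals, for 17596 genes, already normalized to gene length and mapped fragments. The submitters' processing notes name Bowtie2 and the build GRCm38 (mm10), and how fragments were counted is not given in the sources used here. The sample labels name an extraction reagent (TRNzol) and the study's methods a column kit. Read counts and depth are unknown, low values showed no common step, and no counting interval was given.

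Groups came from the sample titles. Values were tested as log2(FPKM + 1) with no added scaling in limma 3.58.1 (R 4.3.3), for the 10823 genes averaging 1 FPKM or more. The model held the 4 group means and a trend, and p-values were adjusted by Benjamini-Hochberg over these genes. A call needed adjusted p below 0.05 and a change beyond 0.5 log2 units. The procedure was tested on simulated data. Values and figures were made with Python 3.11.15, pandas 2.3.3 and matplotlib 3.10.9. Promoters and coordinates are those of RefSeq (GRCm38.p6), and stretches of 50 bases were compared among GENCODE transcripts of GRCm38.

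The members and gene lists were chosen with earlier results of these data known. All 9 members were named, with the 3 genes most like each by r. From each list, genes called by genotype or in the interaction and up to 4 genes with the largest called change on activation in control cells were to be named. *H2-Q7*, *H2-T22*, genes passing the adjusted p alone and further proteasome and marker genes were named after their values were seen. Alternatives were pseudocounts of 0.1 and 5, no filter or a mean of at least 5 FPKM, 3 other scalings, no trend, a replicate block, only the groups compared in the fit, and each library left out, besides a log2 limit of 1 or no limit.

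The labels give the same replicate numbers to each group. Correlations of same-numbered deviations between groups lay between -0.122 and 0.0867, and the numbers were not taken as pairs. The result of 1 marker gene is not reported here.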

Additional observations from a re-analysis of the deposited data

Results flagged for a closer look

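In the values as deposited, *H2-D1* was higher in both control and lower in all 3 *Mct1*-deficient day 3 libraries than in every day 0 library of the same genotype. The change in control cells did not pass (0.09, limma adjusted p = 0.141), and the difference itself was -0.23 on the log2 scale and did not pass (limma adjusted p = 0.0743). Under each of the other scalings the sign was the same in both genotypes, with -0.11 in control and -0.32 in *Mct1*-deficient cells under equal totals, 0.30 and 0.08 under median of ratios, and -0.21 and -0.44 under quantile normalization.

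In the interaction of genotype and day, *Hfe*, a class I-like gene of iron metabolism, had -0.66 (limma adjusted p = 0.0256), with 8.85 and 9.86 FPKM in control and 12.9 and 11.6 FPKM in *Mct1*-deficient libraries on day 0, and 1.45 and 1.74 against 1.23, 0.840 and 1.27 FPKM on day 3. The genotype change of *Hfe* passed on neither day (0.36 on day 0, limma adjusted p = 0.274, and -0.30 on day 3, limma adjusted p = 0.0787). For *Socs3* the interaction was -0.98 (limma adjusted p = 0.00257), with 5.63 and 7.49 FPKM in control and 7.78 and 7.56 FPKM in *Mct1*-deficient libraries on day 0.

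Interactions of *Slc16a1*, the targeted gene, and of markers of other cells were also called. They were -1.06 for *Slc16a1*, -1.52 for *Flt3* and -0.61 for *Zbtb46* (dendritic cell list), -0.91 for *Hba-a1* (erythroid list), and 0.51 for *Adgre1* and 0.57 for *Lyz2* (myeloid list), each with a limma adjusted p under 0.05. *Siglech*, of the dendritic cell list, went the other way by the adjusted p alone (0.41, limma adjusted p = 0.0358). On activation of control cells *Flt3* went from 13.1 to 17.5 FPKM and *Zbtb46* from 3.77 to 4.89 FPKM, while *Siglech* fell from 21.3 to 0.055 FPKM.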

How the results depend on the processing

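Both heavy chains remained lower in *Mct1*-deficient cells on day 3 under all 20 alternatives, but not always past the adjusted p. *H2-K1* ranged from -0.22 to -0.15 (limma adjusted p 0.00643 to 0.122) and did not pass in 7, namely no filter on low values (0.0610), median-of-ratios scaling (0.0633), the replicate block (0.0852), the crossed block (0.117), and without control library 1 (0.122), control library 2 (0.0704) or *Mct1*-deficient library 3 of day 3 (0.0666). *H2-D1* ranged from -0.25 to -0.18 (0.00374 to 0.0933) and did not pass in 3, without either control library of day 3 (0.0933 and 0.0520) and with the crossed block (0.0740). *B2m* passed in 1, quantile normalization (-0.22, 0.00866). With quantile normalization the interaction passed for *H2-D1* (-0.23, 0.0246) and *H2-K1* (-0.17, 0.0415), and without the first *Mct1*-deficient day 0 library for *H2-D1* (-0.30, 0.0421).

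The number of members called by genotype on day 3 went from 0 to 2 with no fold limit. On activation it was 5 in control cells, with 3 under equal totals, 8 under median-of-ratios scaling, 0 at a log2 limit of 1 and 8 with no limit, and 4 in *Mct1*-deficient cells, with 7 under median-of-ratios scaling, 0 at a limit of 1 and 9 with no limit. Over all tested genes the number called higher in control cells was 2687, with 2074, 3433, 1324 and 4008 in these settings. In *Mct1*-deficient cells it was 2532, with 3341, 1200 and 3941. Changes near 0 turned sign: *Erap1* on day 3 (0.0047 under median of ratios, 0.0050 under quantile, -0.070 to 0.043 leaving out libraries), *Nlrc5* on day 3 (-0.013 to 0.046 leaving out libraries), on day 0 *H2-D1* (-0.0079 under equal totals, -0.058 to 0.067), *B2m* (-0.0055 under equal totals, -0.050 under quantile, -0.064 to 0.076), *H2-K1* (0.010 under median of ratios, 0.011 under quantile, -0.049 to 0.045) and *Tap1* (-0.10 to 0.038), and the interaction of *Tap1* (0.018 under equal totals, 0.019 under quantile, -0.078 to 0.065). On activation *H2-D1* turned to -0.11 (equal totals) and -0.21 (quantile) in control and to 0.076 (median of ratios) in *Mct1*-deficient cells, and *H2-K1* to -0.15 (quantile) in the latter. The fall of *H2-D1* in *Mct1*-deficient cells did not pass with the replicate block (limma adjusted p = 0.0511) or the crossed block (0.0795). *Tapbp* in control cells did not pass under equal totals (0.11) or quantile normalization (0.05), nor did *H2-K1* in control cells under quantile normalization (0.01) or in *Mct1*-deficient cells under equal totals (0.07). The cause of these changes was not tested.

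With the replicate block, 0 members were called by genotype on day 3 and 5 on activation in each genotype. The crossed numbering, added after the data were seen, called 274 genes on day 3. Over all genes, calls on day 3 numbered 262, with 421 at a pseudocount of 0.1, 120 at 5, 54 at a limit of 1 and 1650 with none. Calls on day 0 numbered 30, with 13 without a filter, 2 with only the groups compared, 16 at a limit of 1, 101 without control library 2 and 67 without *Mct1*-deficient library 2. Interaction calls numbered 350, with 156 at a pseudocount of 5, 56 at a limit of 1 and 1020 with none. Activation calls numbered 6258 in control (3191 at a limit of 1) and 6120 in *Mct1*-deficient cells (2994 at 1, 9258 with none). Higher genes made up 42.9% and 41.4% of these, with 31.8% and 31.6% under equal totals and 55.7% and 55.2% under median of ratios. Where leaving out a library left 1 in its group, that library was assumed to vary like the other groups.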
